A study of Mus musculus with 208 samples.

Results

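The exposure comparison under immune challenge in the adult mouse hypothalamus set MOR-LPS animals, exposed to morphine before and after birth, against SAL-LPS animals, exposed to saline, both given LPS as adults. Its libraries were those of the hypothalamic RNA-seq table whose label begins with either condition and whose total count was at least 0.5 times the median total of all 51 hypothalamic libraries, 5543589 counts. This kept 25 of 26 libraries, 14 of 14 from MOR-LPS (7 female, 7 male, 9 litters) and 11 of 12 from SAL-LPS (7 female, 4 male, 6 litters), out of 208 samples in the series. The litter is the first number of an animal's label, as the study's sample key reads it. The genes described were the 18710 of 46403 in the table with a mean of at least 1 CPM (counts scaled to a common library total) over the 25 libraries, and all of them were among the 28841 genes tested. Of these, 17670 reached a mean of 1 CPM in both groups, 729 in MOR-LPS alone and 311 in SAL-LPS alone. The gene nearest the limit from above had a mean of 1.0007 CPM and the nearest from below 0.9997 CPM.

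All animals were wild-type C57BL/6NTac mice. Dams carried an osmotic minipump with morphine sulfate at 10 mg/kg/day or with saline, pups were moved after birth to drug-naive surrogate dams, and pups then received morphine at 10 mg/kg or saline under the skin 2 times a day from postnatal day 1 to day 14. As adults the same animals were injected with LPS or saline, and tissue was taken 2 hours later. In the challenge controls, MOR-SAL (14 libraries kept) and SAL-SAL (9 kept), the adult injection was saline. Each library came from about 5000 nuclei of 1 animal, sorted for the neuronal nuclear protein NeuN, so the values are nuclear RNA of a neuron-enriched fraction of punched tissue. Exposure was given to the dam, several animals shared a litter, and no litter held both exposures, so litter and exposure cannot be fully told apart and the p-values measure the spread between animals.

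LPS, a component of the outer membrane of Gram-negative bacteria, is sensed by Toll-like receptor 4 and sets off the release of inflammatory cytokines. The hypothalamus reads those signals and drives fever, loss of appetite and, through corticotropin-releasing hormone, the release of glucocorticoids, which in turn switch on target genes and restrain inflammation. Morphine acts on the mu opioid receptor, and opioid peptides and their receptors are native to hypothalamic neurons that control feeding, stress and reproduction.

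Total counts ran from 3036876 to 9227808 in MOR-LPS (median 5975806.5) and from 3050166 to 35077048 in SAL-LPS (median 5764174). A count of 3, taken as the floor of detection, was worth 0.325 to 0.988 CPM in MOR-LPS and 0.0855 to 0.984 CPM in SAL-LPS. No 2 libraries were identical, and correlations between libraries had a median of 0.856 within MOR-LPS (lowest 0.710), 0.896 within SAL-LPS (lowest 0.813) and 0.870 between the groups. The transcript Gm26917 alone took 6.91 to 40.0% of counts in MOR-LPS and 12.1 to 41.4% in SAL-LPS. One MOR-LPS library labelled female (animal 1 of litter 18) held Xist, the RNA that coats the inactive X chromosome, at 0.529 CPM and Y-linked genes at 0.265 CPM, and a SAL-LPS library labelled female (animal 0 of litter 10) held Y-linked genes at 112 CPM beside Xist at 569 CPM. The pan-neuronal markers summed to 2161 to 3924 CPM in MOR-LPS and 2076 to 3821 CPM in SAL-LPS. Glial markers were present beside them, and in 3 MOR-LPS and 2 SAL-LPS libraries the oligodendrocyte markers alone summed to more than the pan-neuronal ones. Levels below are CPM scaled by edgeR's TMM factors, are not corrected for gene length, and are compared between animals and never between genes.

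Markers of neighbouring brain regions differed between animals, and their values are given first because results below move with them; why they differed was not tested. The sum of 7 genes of telencephalic glutamatergic neurons (among them Slc17a7, Neurod6, Neurod2, Tbr1, Emx1 and Fezf2, picked from the cortex and hippocampus list after values were seen) was over 100 CPM in 6 of 14 MOR-LPS libraries, at 165 to 409 CPM, and lay between 8.22 and 61.8 CPM in the other 8. In SAL-LPS it was over 100 CPM in 2 of 11 libraries, at 161 and 171 CPM, and at most 64.8 CPM in the other 9. No saline-challenged library passed 100 CPM, the highest being 28.3 CPM in MOR-SAL and 69.6 CPM in SAL-SAL. The 6 MOR-LPS libraries came from 4 litters and from 4 males and 2 females, and the 2 SAL-LPS libraries from males of 1 litter. Sim1 and Nkx2-1, transcription factors of the hypothalamus, together stood under 5 CPM in 4 MOR-LPS libraries, all 4 also high in the telencephalic genes, and in 3 SAL-LPS libraries, of which 1 was also high. The sum of these factors had a median of 23.5 CPM in MOR-LPS and 13.9 CPM in SAL-LPS, and stood under 5 CPM in 3 MOR-SAL and 2 SAL-SAL libraries. Oxt, the oxytocin gene, was at 0 in 10 of 14 MOR-LPS and 2 of 11 SAL-LPS libraries, and Avp, the vasopressin gene, in 9 of 14 and 2 of 11. Both were named after their values were seen. Of the 27 described hypothalamic neuropeptides, 13 had a positive and 14 a negative log2 fold change (median -0.03).

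After LPS, 21 of the 18710 described genes differed between the exposures at an edgeR adjusted p under 0.05 (0.112%), 16 higher in MOR-LPS (0.0855%) and 5 lower (0.0267%). The genes with the smallest p were Susd6, Rprm, Nell2, Slc1a2, Golm1 and Tcf4 among those that rose, and Adam4, Slc6a5, Gm24966, Zfp941 and Cdh7 among those that fell. Before adjustment 1731 described genes had p under 0.05 (9.25%), 944 higher (5.05%) and 787 lower (4.21%), and the median log2 fold change of all described genes was 0.01. No described gene (0%) had groups that did not overlap. Over all genes tested 66 were called (0.229%), 45 of them under the 1 CPM limit, and before adjustment 2211 were higher (7.67%) and 2001 lower (6.94%) at p under 0.05. With only described genes in the fit 3 were called (1 higher, 2 lower), with DESeq2 47 (37 higher, 10 lower), and when only library size scaled the counts 69, of which 97.1% were higher against 76.2% as reported. The balance turned with a litter correlation in limma-voom (43 higher, 96 lower), without the libraries low in Sim1 and Nkx2-1 (30 higher, 35 lower), with the telencephalic term (4 higher, 8 lower) and, as with only described genes, with filterByExpr (1 higher, 2 lower). The number of calls moved with single libraries: leaving out each library or litter of the compared groups in turn gave 1 (without litter 14) to 54 (without the MOR-LPS library of animal 1 of litter 18), and with the 8 libraries over 100 CPM of telencephalic genes left out, 8 against 9 animals, edgeR called 0 described genes, with 601 higher and 579 lower at unadjusted p under 0.05.

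**Figure D1:**
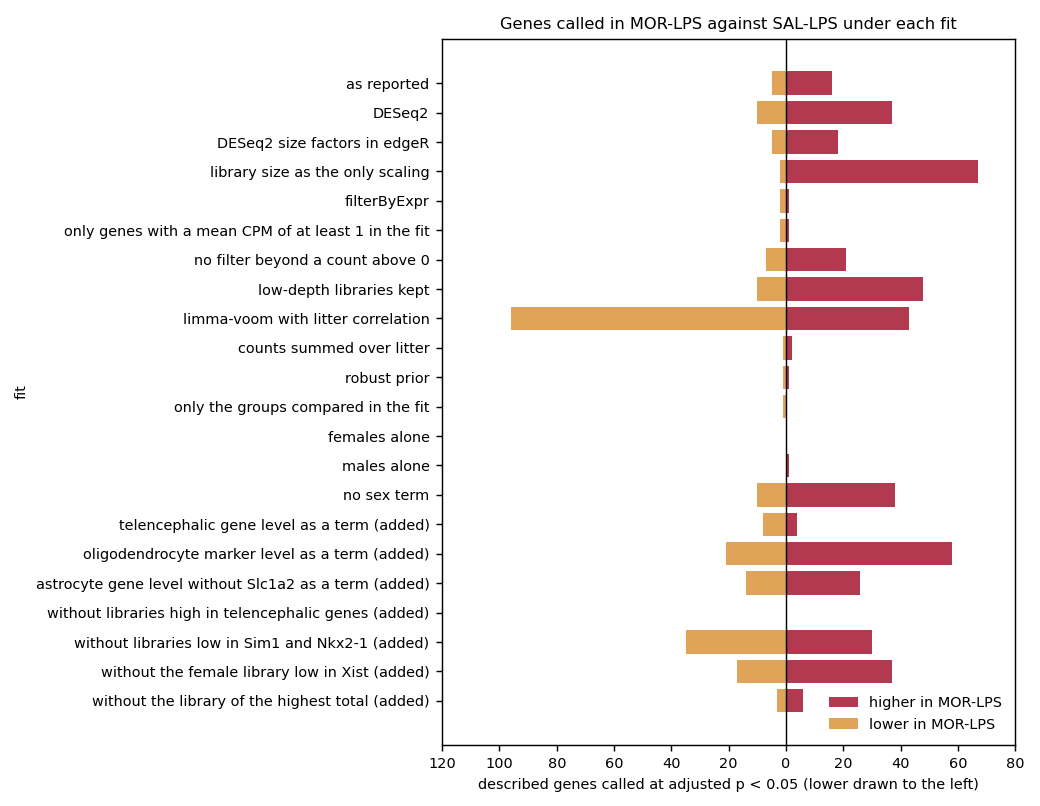
Genes called at an adjusted p under 0.05 in MOR-LPS against SAL-LPS among those described, with higher genes to the right and lower genes to the left of 0, as reported (top bar) and under each other setting. The reported 16 higher and 5 lower genes sit among counts that run from 0 without the libraries high in telencephalic genes to 139 with a litter correlation in limma-voom.

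Susd6, on chromosome 12 (80790510 to 80880835, plus strand, GRCm38), encodes a membrane protein with a sushi domain. Its level was 15.9 CPM in the lowest, 33.2 in the median and 64.1 in the highest MOR-LPS animal, against 7.15, 14.5 and 30.3 in SAL-LPS. All 14 MOR-LPS animals lay above the SAL-LPS median although the ranges overlapped. Genes were named by p on these same values, so such counts, here and below, describe the spread and are no further evidence. The share of all described genes with such a count was not taken. The log2 fold change was 1.20 ± 0.21 (SE, n = 14 and 11, edgeR adjusted p = 0.00756). Susd6 was the 1 gene of the 21 whose call was kept in every one of the 40 fits that left out a library or litter, and it was called in 16 of 21 other fits. Its log2 fold change was 1.48 in females alone and 0.79 in males alone, and neither passed the adjusted threshold in those smaller fits (edgeR adjusted p = 0.102 and 0.342).

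Rprm (chromosome 2, 54084093 to 54085552, minus strand) encodes reprimo, a p53 target that arrests the cell cycle in G2. Its lowest, median and highest levels were 9.93, 28.8 and 96.4 CPM in MOR-LPS and 0, 5.64 and 14.0 CPM in SAL-LPS, and again all 14 MOR-LPS animals exceeded the SAL-LPS median. It rose by a log2 fold change of 2.76 ± 0.57 (edgeR adjusted p = 0.0409). Ptma, which encodes the nuclear protein prothymosin alpha, was the third called gene with all 14 MOR-LPS animals above the SAL-LPS median, at 21.6, 43.1 and 71.1 CPM against 11.9, 21.1 and 35.2 CPM (log2 fold change 1.00 ± 0.23, edgeR adjusted p = 0.0491).

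Slc1a2 encodes GLT-1, the glutamate transporter that clears most synaptic glutamate and is highest in astrocytes. It stood at 84.9, 306 and 834 CPM (lowest, median, highest) in MOR-LPS and 77.8, 176 and 260 CPM in SAL-LPS, with 11 of 14 MOR-LPS animals above the SAL-LPS median. It rose by 1.23 ± 0.26 on the log2 scale (edgeR adjusted p = 0.0409). With the level of 5 other astrocyte genes as a term, its log2 fold change was 0.81 and its edgeR adjusted p 0.110. The term was added, and its 5 genes picked from the astrocyte markers, after the data were seen. Slc1a2 shares exon sequence on the opposite strand with Gm13872, and since the strand setting of the counting is not given in the sources used here, such reads cannot be split. The same uncertainty holds for Golm1 (with Naa35), Itga4 (Cerkl), Sort1 (Gm12523), Psd3 (Gm15991), Ppfia2 (Acss3 and C230021G24Rik) and Abr (Gm26780), and, of genes named below, for Dsp, Hecw1, Junb, Jun, Irf1, Cebpd, Il6ra, Il1rap, Bdnf, Penk, Oprm1, Foxb1, Six3, Glra1, Bhlhe40, Pfkp, Gabra5, Kcnj3, Kcnj9, Itga8, Lama2, Sirt2, Olig1, Pdgfra, Cnp, Fgfr3, Csf1r, Prox1 and Dusp1.

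Tcf4 encodes E2-2, a basic helix-loop-helix transcription factor of developing and mature neurons. Its levels were 76.0, 188 and 707 CPM in MOR-LPS and 53.1, 84.5 and 221 CPM in SAL-LPS, with 13 of 14 MOR-LPS animals above the SAL-LPS median. The log2 fold change was 1.42 ± 0.30 (edgeR adjusted p = 0.0409). Golm1, for a Golgi membrane protein, ran at 1.54, 19.0 and 144 CPM against 1.21, 4.21 and 12.7 CPM and rose by 2.71 ± 0.57 (edgeR adjusted p = 0.0409). The highest Golm1 values in MOR-LPS were far above every SAL-LPS animal, while the lowest reached the SAL-LPS minimum. Itga4, the integrin alpha 4 chain that binds fibronectin and VCAM-1, ran at 1.70, 16.6 and 54.3 CPM against 1.74, 4.63 and 13.6 CPM and rose by 1.69 ± 0.38 (edgeR adjusted p = 0.0491). With a litter correlation in limma-voom the calls of Tcf4 (0.85, adjusted p = 0.193), Golm1 (1.78, 0.286) and Itga4 (1.66, 0.0563) were lost. Also lost were Ppfia2 (0.88, 0.114), Sphkap (0.85, 0.149), Nptxr (0.78, 0.0624), Slc6a5 (-3.16, 0.157) and Dsp (1.66, 0.354). With litter sums edgeR called Rprm, Nell2 and Slc6a5, and not Susd6 (adjusted p = 0.0782) or Tcf4 (0.162).

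Other genes that rose were Nell2, Sort1, Psd3, Ppfia2 and Sphkap. Nell2, a secreted glycoprotein that guides axons, stood at 64.9, 130 and 475 CPM in MOR-LPS and 35.5, 82.0 and 117 CPM in SAL-LPS (log2 fold change 1.14 ± 0.24, edgeR adjusted p = 0.0409). Sort1, for the sorting receptor sortilin, which binds neurotensin and proneurotrophins, stood at 117, 205 and 398 CPM against 69.9, 140 and 175 CPM (0.70 ± 0.16, edgeR adjusted p = 0.0491). Psd3, a guanine nucleotide exchange factor of postsynaptic sites, ran from 93.2 to 239 CPM against 72.2 to 150 CPM and rose by 0.64 ± 0.15. Ppfia2, the presynaptic scaffold liprin alpha 2, and Sphkap, which anchors protein kinase A, rose by 1.18 ± 0.28 and 1.15 ± 0.27 (edgeR adjusted p = 0.0491 for each of the 3). In Ppfia2 the highest MOR-LPS animal stood at 683 CPM against a median of 109, and in Sphkap at 558 CPM against 100, while no SAL-LPS animal passed 108 and 109 CPM. Outside the rule for named genes, and named after their values were seen, Nptxr, the neuronal pentraxin receptor, rose by 0.87 (mean 132 CPM against 67.8) and Abr, a regulator of small GTPases, by 0.46 (mean 404 CPM against 285).

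**Figure D2:**
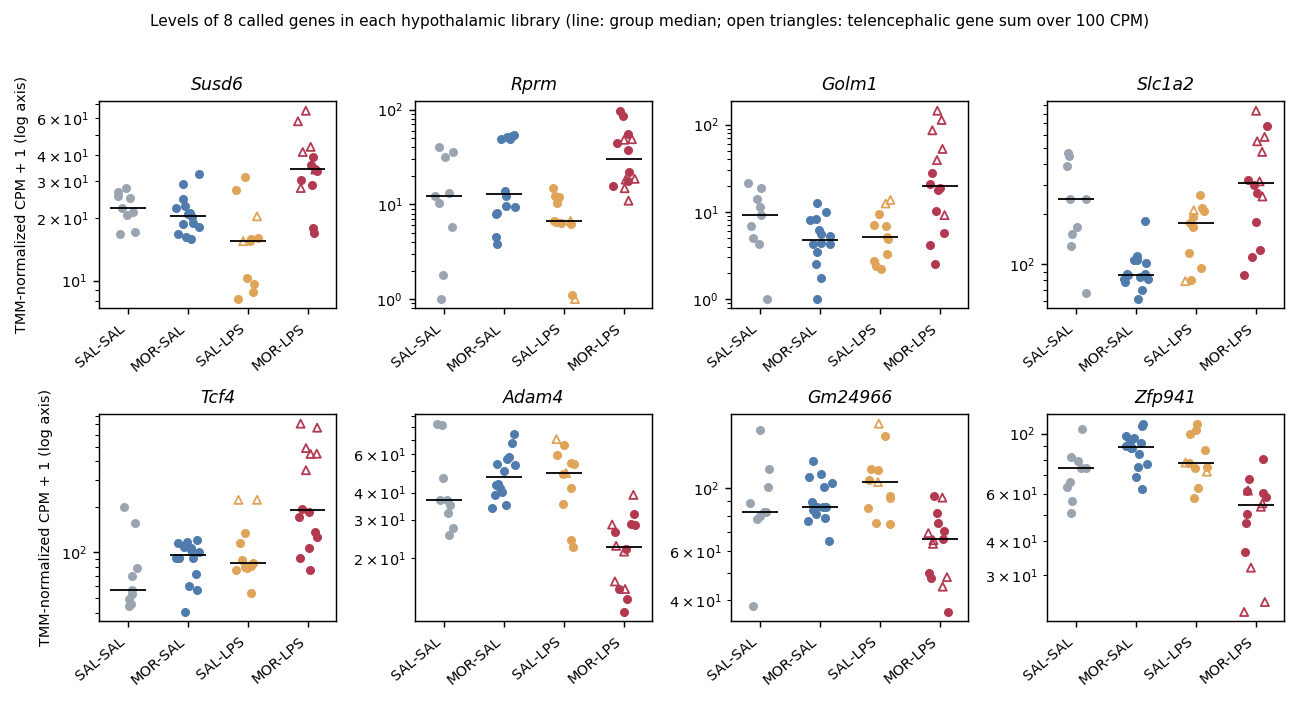
TMM-normalised CPM + 1 on a log axis of 8 called genes in every hypothalamic animal of the 4 conditions, with a line at the median; open triangles are libraries whose telencephalic genes summed to over 100 CPM. In Susd6 and Rprm all 14 MOR-LPS points lie above the SAL-LPS median, and in Adam4 and Gm24966 all 14 lie below it. The 8 genes are among those with the smallest p on these same values.

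Part of these differences lay mainly in the MOR-LPS libraries high in telencephalic genes and part did not. In the 6 MOR-LPS libraries over 100 CPM, the other 8 MOR-LPS libraries and the 9 other SAL-LPS libraries, the mean Tcf4 level was 517, 135 and 87.3 CPM in that order. Nell2 had means of 284, 97.4 and 78.8 CPM, Ppfia2 of 287, 74.4 and 64.1 CPM, Sphkap of 271, 76.7 and 61.1 CPM, and Golm1 of 73.2, 12.5 and 3.93 CPM. In these 5 genes most of the difference from SAL-LPS lay in the 6 libraries. The 2 SAL-LPS libraries over 100 CPM are not in these means. Over all 11 SAL-LPS libraries, those 2 included, the means were 112 CPM in Tcf4, 77.8 in Nell2, 67.0 in Ppfia2, 64.3 in Sphkap and 5.41 in Golm1. No SAL-LPS animal reached the mean of the 6 MOR-LPS libraries in any of these genes. Susd6 had means of 44.0, 28.6 and 14.8 CPM and Ptma of 48.1, 41.0 and 22.6 CPM, so that the other 8 libraries also stood well above SAL-LPS. In Rprm the order turned, with means of 25.6, 46.1 and 7.50 CPM, and Adam4 (22.6, 21.0 and 44.3 CPM) and Gm24966 (63.0, 64.2 and 101 CPM) had the same level in both sets of MOR-LPS libraries.

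With the summed level of the 7 genes as a term in the edgeR fit, chosen after the data were seen, 12 described genes were called, 4 higher and 8 lower, 6 of them shared with the 21. Those named were Susd6 (log2 fold change 1.04, adjusted p = 0.0284), Rprm (2.96, 0.0278), Adam4 (-1.23, 0.00226), Slc6a5 (-6.88, 0.0104), Gm24966 (-0.79, 0.0286) and Cdh7 (-1.13, 0.0475). The calls of Tcf4 (0.74, adjusted p = 0.144), Nell2 (0.60, 0.208), Golm1 (1.55, 0.114), Itga4 (0.80, 0.370), Slc1a2 (0.88, 0.0848), Sort1 (0.46, 0.160), Psd3 (0.47, 0.115), Ptma (0.93, 0.0560), Ppfia2 (0.36, 0.618), Sphkap (0.58, 0.323), Nptxr (0.69, 0.107), Abr (0.34, 0.140), Dsp (4.56, 0.236) and, among genes that fell, Zfp941 (-0.57, 0.0585) were lost under it. With the 8 libraries left out, the log2 fold changes of Susd6, Rprm and Adam4 were 0.96, 2.86 and -0.97, close to those of the reported fit, with edgeR adjusted p of 0.186, 0.136 and 0.186. Those of Tcf4, Nell2 and Ppfia2 were 0.69, 0.31 and 0.22. Sphkap stood at 0.29, Sort1 at 0.26, Abr at 0.23, Slc1a2 at 0.63, Itga4 at 0.82 and Golm1 at 1.69. Psd3 stood at 0.40, Ptma at 0.91, Nptxr at 0.68, Zfp941 at -0.52, Cdh7 at -0.77 and Gm24966 at -0.66. Among genes described below that were not called, Zbtb16 then stood at 0.19, Il1rap at 0.14, Vip at 0.26, Bhlhe40 at 0.05 and Prox1 at 0.18 on the log2 scale, against 1.21, 0.74, 3.21, 0.71 and 1.05 in the reported fit.

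**Figure D3:**
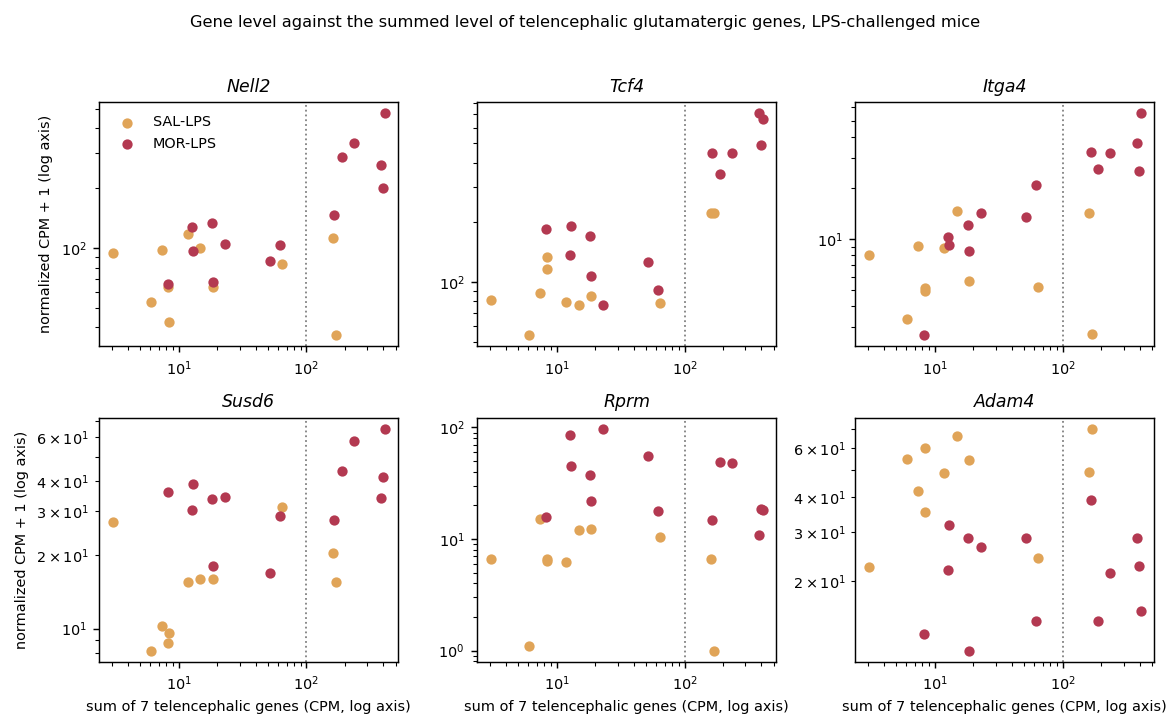
Levels of Nell2, Tcf4, Itga4, Susd6, Rprm and Adam4 (TMM-normalised CPM) against the summed CPM of the 7 telencephalic genes in MOR-LPS and SAL-LPS animals, 1 point an animal, with log axes. Tcf4 and Nell2 are highest in the MOR-LPS animals with sums of 165 to 409 CPM, whereas Adam4 lies low in MOR-LPS at every sum.

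Among the genes that fell, Adam4 had the smallest p. It encodes a member of the ADAM family of membrane metalloprotease-like proteins and lies on chromosome 12 (81419443 to 81421946, minus strand, GRCm38), close to the related gene Gm4787 (81376991 to 81379464, minus strand), so the split of reads common to both is uncertain. Adam4 stood at 10.3, 21.3 and 38.0 CPM (lowest, median, highest) in MOR-LPS and 21.5, 48.2 and 69.4 CPM in SAL-LPS. All 14 MOR-LPS animals lay under the SAL-LPS median. It fell by 1.08 on the log2 scale (SE 0.20, edgeR adjusted p = 0.0112), and the call was kept in 38 of 40 fits that left out a library or litter. Its log2 fold change was -1.06 in females alone and -1.13 in males alone. Gm4787 was not called (log2 fold change -0.85 ± 0.22, edgeR adjusted p = 0.0557), and 12 of 14 animals lay under the SAL-LPS median.

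Gm24966, a small nucleolar RNA on chromosome 7 (59344073 to 59344151, minus strand), stood at 35.4, 64.9 and 92.9 CPM in MOR-LPS and 73.6, 104 and 169 CPM in SAL-LPS, with all 14 MOR-LPS animals under the SAL-LPS median. It fell by 0.76 on the log2 scale (SE 0.16, edgeR adjusted p = 0.0409). Zfp941, a zinc finger gene, ran at 20.9, 53.4 and 79.8 CPM against 56.6, 76.8 and 108 CPM, with 13 of 14 below, and fell by 0.68 (SE 0.15). Cdh7, a cadherin of cell-cell adhesion, ran at 0.529, 30.4 and 64.4 CPM against 30.5, 56.7 and 168 CPM, again with 13 of 14 below, and fell by 1.16 (SE 0.27, edgeR adjusted p = 0.0491 for both).

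A further 7 of the 12 lower genes with the smallest p missed the threshold. Ccdc82 was at 13.1, 43.4 and 82.6 CPM in MOR-LPS against 50.5, 87.5 and 124 CPM in SAL-LPS (log2 fold change -0.84, edgeR adjusted p = 0.0521), with all 14 animals under the SAL-LPS median. The same held in all 14 animals for L3mbtl1, a reader of methylated histones (-0.70, 0.0521) and for the transcript Gm14204 (-1.18, 0.0557). Pde10a, the phosphodiesterase 10A of striatal projection neurons, was lower in 13 of 14 (-0.88, 0.0521, and -0.53 without the SAL-LPS library of animal 0 of litter 10), and the ubiquitin ligase gene Hecw1 in 13 of 14 (-0.51, 0.0521).

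The called genes with the largest fold changes rested on few animals. Slc6a5, the glycine transporter GlyT2 of glycinergic neurons of the hindbrain and spinal cord, was at 0 in 10 of 14 MOR-LPS animals, with a highest value of 1.35 CPM, and at 0 in 6 of 11 SAL-LPS animals. In SAL-LPS the level was 384 CPM in animal 0 of litter 1, 134 CPM in animal 3 of litter 3 and 16.0 CPM in animal 4 of litter 4. Slc6a5 met the 1 CPM limit only through SAL-LPS (means 0.204 and 48.7 CPM), so its place among the called genes of a list is no support for that list. The fitted log2 fold change was -6.89 ± 1.32 (edgeR adjusted p = 0.0183), and without the libraries low in Sim1 and Nkx2-1 it was 1.18. Named after its values were seen, Dsp, for the desmosome protein desmoplakin, was at 0 in 10 of 14 and 10 of 11 animals, with 85.6, 36.4, 26.7 and 4.28 CPM in the other 4 MOR-LPS animals. It met the limit only through MOR-LPS. All 4 MOR-LPS animals with Dsp were among the 6 high in telencephalic genes. Its fitted log2 fold change was 7.10.

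No gene of the inflammatory response lists was called. Their medians were positive, and with the astrocyte term they were 0.12 for NF-kB and acute inflammatory genes, -0.01 for interferon genes and -0.09 for cytokine and interferon receptors. Of 28 NF-kB and acute inflammatory genes 19 were described, 12 with a positive and 7 with a negative log2 fold change, median 0.49, and 4 had unadjusted p under 0.05, all 4 higher (against 5.05% of all described genes). These were Relb, a subunit of NF-kB (median 3.70 CPM against 0.997, log2 fold change 1.74, edgeR adjusted p = 0.150), Junb, an AP-1 subunit (18.5 against 9.26 CPM, 0.92, 0.158), Irf1, an interferon regulatory factor (10.5 against 4.54 CPM, 1.43, 0.182), and Cebpd, an acute-phase transcription factor (7.11 against 0.975 CPM, 2.21, 0.258). Of 29 interferon response and antigen presentation genes 22 were described, 19 positive and 3 negative, median 0.58, with 2 at unadjusted p under 0.05. They were the class I antigen gene H2-K1, at 0, 12.3 and 77.0 CPM (lowest, median, highest) against 0.151, 1.99 and 21.9 CPM (1.93, edgeR adjusted p = 0.131), and the antiviral gene Ifit1 (1.57, 0.221).

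Cytokine and interferon receptors gave 20 described of 22, with a median of 0.38 and 4 at unadjusted p under 0.05, all higher. Il6ra, the interleukin 6 receptor, was at 0, 4.53 and 28.9 CPM in MOR-LPS and 0, 1.14 and 3.65 CPM in SAL-LPS (log2 fold change 2.65 ± 0.82, edgeR adjusted p = 0.0895). Tgfbr1, a receptor of transforming growth factor beta, was at 16.9 against 4.81 CPM in the median (1.29, 0.0916), Il1rap, the accessory chain of the interleukin 1 receptor, at 87.8 against 62.9 CPM (0.74, 0.146), and Osmr, the oncostatin M receptor, at 3.25 against 0.682 CPM (1.97, 0.272). Of the 17 genes of prostaglandin synthesis and reception, the pathway of fever, 13 were described, with a median of 0.28 and none at unadjusted p under 0.05.

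The list with the most uniform direction among the response genes was that of glucocorticoid-induced genes. All 19 described of its 20 members had a positive log2 fold change, from 0.11 to 2.22 with a median of 0.70, and 10 had unadjusted p under 0.05, though none was called in the reported fit. Of all 18710 described genes 9443 were positive, and 5.05% were higher at that p. Ddit4, an inhibitor of mTOR signalling, was at 2.12, 14.6 and 42.7 CPM in MOR-LPS and 2.75, 4.21 and 16.4 CPM in SAL-LPS, with 12 of 14 animals above the SAL-LPS median (1.43 ± 0.41, edgeR adjusted p = 0.0681). Zbtb16, a zinc finger repressor, was at 11.9, 59.5 and 216 CPM against 19.5, 29.6 and 53.6 CPM (1.21 ± 0.35, 0.0762). Klf9, a Krüppel-like factor, was at 37.6, 62.0 and 204 CPM against 27.4, 42.4 and 74.8 CPM (0.74 ± 0.22, 0.0762), and Errfi1, an inhibitor of the EGF receptor, at 3.72, 23.9 and 55.8 CPM against 7.39, 9.26 and 21.0 CPM (0.96 ± 0.29, 0.0840).

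The median of the glucocorticoid-induced list was 0.70 with the telencephalic term, 0.76 without the 8 libraries, 0.28 with the level of the oligodendrocyte markers as a term and 0.31 with the level of 5 astrocyte genes as a term. Its members higher at unadjusted p under 0.05 numbered 9, 7, 6 and 3 in those settings. Without the libraries low in Sim1 and Nkx2-1 Ddit4 was called (edgeR adjusted p = 0.0367). Single members moved differently: the mean of Zbtb16 was 129 CPM in the 6 MOR-LPS libraries high in telencephalic genes, 33.2 in the other 8 and 29.0 in the 9 other SAL-LPS libraries. The NF-kB, interferon and receptor lists had medians of 0.12, -0.01 and -0.09 with the astrocyte term, against 0.32, 0.64 and 0.24 without the 8 libraries. In bulk nuclei, more cells of a type and more RNA per cell cannot be told apart.

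Immediate early genes, which neurons switch on within minutes of activity, had a median of 0.52 over 20 described of 20, 15 positive and 5 negative, with 4 at unadjusted p under 0.05, none called in the reported edgeR fit and 1 by DESeq2 (Bdnf, adjusted p = 0.0141). In edgeR Bdnf was called with the oligodendrocyte term (adjusted p = 0.0365), with the astrocyte term (0.0296) and without the libraries low in Sim1 and Nkx2-1 (0.0463). It was not called with the telencephalic term (0.0663) or, in limma-voom, with the litter correlation (0.130). Bdnf, the activity-dependent neurotrophin, was at 8.76, 20.1 and 73.6 CPM in MOR-LPS and 4.16, 15.5 and 22.1 CPM in SAL-LPS (1.24 ± 0.31, edgeR adjusted p = 0.0521), and Nr4a2, an orphan nuclear receptor, at 7.70, 31.9 and 72.7 CPM against 4.36, 12.9 and 42.6 CPM (1.09, 0.162). Jun was at a median of 17.2 against 10.7 CPM (0.74, 0.225), and Junb was given above. The list's median was -0.13 with the telencephalic term and -0.25 without the libraries low in Sim1 and Nkx2-1.

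**Figure D4:**
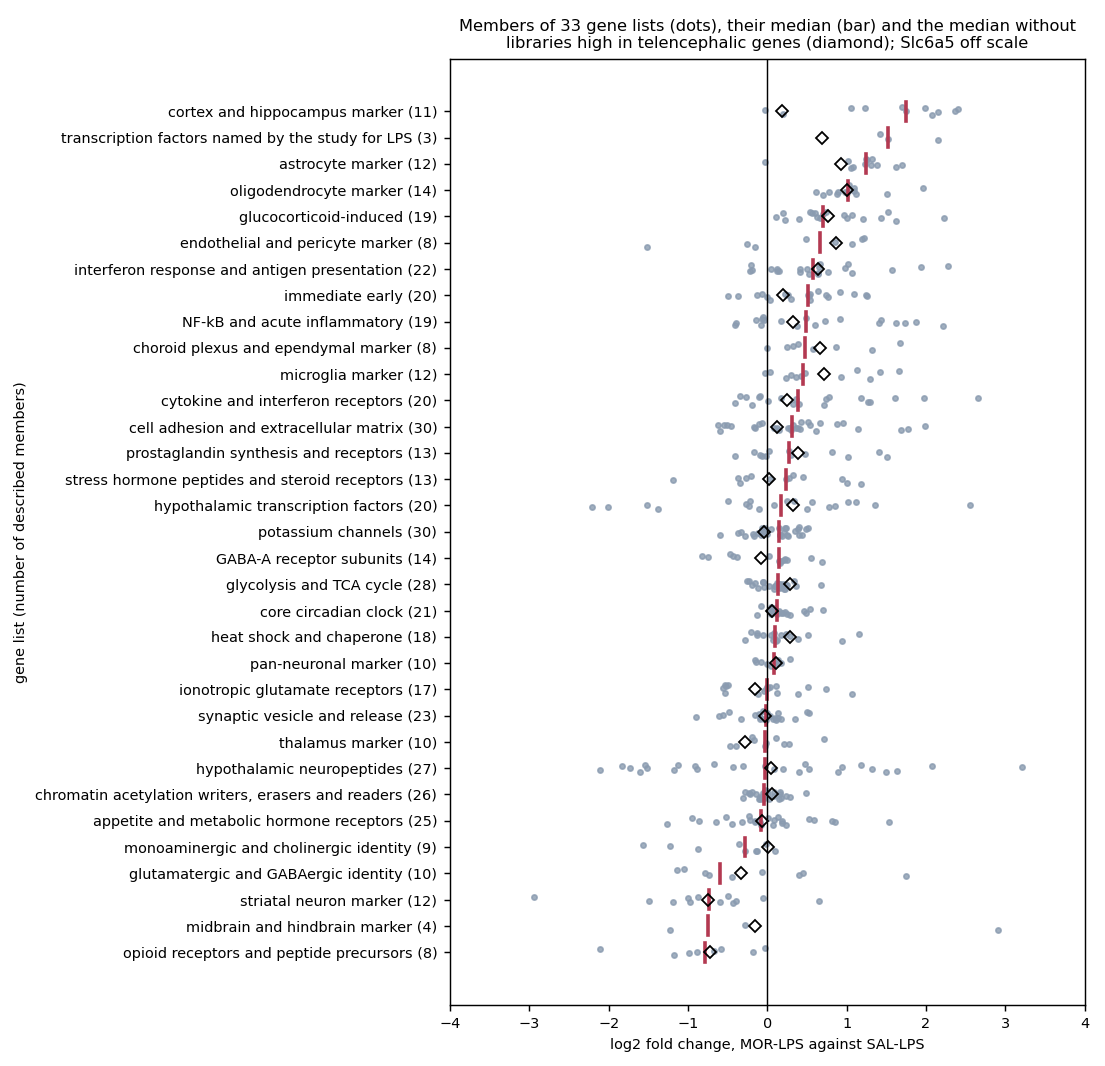
Log2 fold change of MOR-LPS against SAL-LPS for the described members of each of 33 gene lists, 1 point a gene, with a bar at the median and a diamond at the median without the libraries over 100 CPM of telencephalic genes. All 19 glucocorticoid-induced genes lie above 0 and all 8 opioid genes below it; the cortex and hippocampus median drops from 1.75 to 0.18.

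Opioid receptors and peptide precursors went the other way. All 8 genes had a negative log2 fold change, from -2.11 to -0.03 with a median of -0.78, and 4 had unadjusted p under 0.05, with none called (4.21% of all described genes were lower at that p). Oprk1, the kappa opioid receptor, was at 6.89, 37.4 and 78.1 CPM in MOR-LPS and 30.1, 64.5 and 97.6 CPM in SAL-LPS, and 13 of 14 MOR-LPS animals lay under the SAL-LPS median (-0.99 ± 0.28, edgeR adjusted p = 0.0724). Oprm1, the mu opioid receptor on which morphine acts, was at 10.2, 41.7 and 89.8 CPM against 40.9, 60.0 and 92.4 CPM, with 12 of 14 below (-0.58 ± 0.21, 0.140). The 4 lower genes at unadjusted p under 0.05 became 1 without the 8 libraries and 2 with the telencephalic term. They became 5 with the oligodendrocyte term, 6 with the astrocyte term, 5 without the libraries low in Sim1 and Nkx2-1 and 5 without the library of the highest total.

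Penk, the enkephalin precursor, was at 17.3, 60.0 and 97.1 CPM in MOR-LPS and 33.2, 74.3 and 522 CPM in SAL-LPS (-1.18 ± 0.36, edgeR adjusted p = 0.0893). Its log2 fold change was -0.63 without the SAL-LPS library of animal 0 of litter 10, -0.48 with litter sums and -0.36 with the litter correlation. Pomc, the precursor of beta-endorphin and melanocortins, was at 0 in 6 of 14 MOR-LPS animals, with a median of 0.262 CPM against 2.79 CPM in SAL-LPS (-2.11, 0.295), and its log2 fold change was 2.00 in males alone. The opioid list's median was -0.55 with the telencephalic term and -0.72 without the 8 libraries. It was -0.95 with the oligodendrocyte term, -1.04 with the astrocyte term, -0.67 without the libraries low in Sim1 and Nkx2-1 and -0.93 without the library of the highest total. Oprk1 means were 20.04 CPM in the 6 high MOR-LPS libraries, 44.8 in the other 8 and 68.3 in the 9 other SAL-LPS libraries.

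Hypothalamic neuropeptides had 27 described of 32, 13 positive and 14 negative, a median of -0.03, and 3 higher and 4 lower at unadjusted p under 0.05. The split moved with the setting: it was 3 higher and 7 lower without the library of the highest total, 4 and 9 without the libraries low in Sim1 and Nkx2-1, 2 and 10 with the astrocyte term, 5 and 1 with the telencephalic term, and 4 and 0 without the 8 libraries. Cck, the cholecystokinin precursor, was at 5.39, 37.5 and 90.1 CPM in MOR-LPS and 0, 9.76 and 31.6 CPM in SAL-LPS (2.07 ± 0.52, edgeR adjusted p = 0.0521, DESeq2 0.0325). Its means were 75.5, 18.2 and 8.57 CPM in the 6 high MOR-LPS, the other 8 and the 9 other SAL-LPS libraries. Vip, for vasoactive intestinal peptide, had a median of 3.07 against 1.22 CPM (3.21, 0.0954) and means of 24.2, 1.21 and 0.970 CPM in those sets, and Adcyap1, the PACAP precursor, had a median of 20.3 against 7.58 CPM (1.495, 0.164).

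Appetite and metabolic hormone receptors had 25 described of 27, a median of -0.08, and 2 at unadjusted p under 0.05, both higher. These were Ramp1, a partner of the calcitonin receptor family (median 18.1 against 5.49 CPM, 1.53, edgeR adjusted p = 0.154), and Npy1r, a neuropeptide Y receptor (18.1 against 13.9 CPM, 0.82, 0.272), whose log2 fold change was -0.01 without the 8 libraries high in telencephalic genes. Stress hormone peptides and steroid receptors had 13 described of 17, a median of 0.23 and none at that p. Hypothalamic transcription factors had 20 described of 27 and a median of 0.17, with Foxb1 higher (median 4.82 against 1.23 CPM, 2.55, edgeR adjusted p = 0.170) and Six3 lower (1.10 against 9.17 CPM, -1.52, 0.247) at unadjusted p under 0.05. With the telencephalic term that list's median was 0.61, with 4 higher at unadjusted p under 0.05 and Foxb1 called (4.53, edgeR adjusted p = 0.0495).

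Genes of glutamatergic and GABAergic identity had 10 described of 10, a median of -0.60 (0.08 without the libraries low in Sim1 and Nkx2-1), 1 called gene (0.112% of all described genes were called), Slc6a5, which met the 1 CPM limit through SAL-LPS alone, and 1 higher and 4 lower at unadjusted p under 0.05. Gad2, which makes GABA at terminals, was at 48.8, 117 and 268 CPM in MOR-LPS and 109, 194 and 346 CPM in SAL-LPS, with 13 of 14 animals under the SAL-LPS median (-0.74 ± 0.23, edgeR adjusted p = 0.0945). In edgeR Gad2 was called lower with the oligodendrocyte term (adjusted p = 0.0365) and the astrocyte term (0.0445), and not with the telencephalic term (0.240). The glycine receptor gene Glra1 (-1.05, 0.206) and the GABAergic lineage factor Meis2 (-1.14, 0.220) were the others. Monoaminergic and cholinergic genes had 9 described of 12 and a median of -0.28 (0.28 with the telencephalic term and 0.41 without the libraries low in Sim1 and Nkx2-1), with Chat, which makes acetylcholine, lower (median 0.737 against 2.27 CPM, -1.57, 0.321).

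Ionotropic glutamate receptor subunits lay on both sides of 0, with 17 described of 17, a median of -0.01, 4 higher and 5 lower at unadjusted p under 0.05 and none called in the reported edgeR fit. The litter correlation in limma-voom called Grik3 (adjusted p = 0.0365) and Gria4 (0.0208) lower, and in edgeR 2 members were called higher with the oligodendrocyte term and 1 with the astrocyte term. Grik3, a kainate receptor subunit, was at 58.5, 85.9 and 138 CPM in MOR-LPS and 88.3, 117 and 194 CPM in SAL-LPS (-0.53 ± 0.14, edgeR adjusted p = 0.0580), and Gria4, an AMPA receptor subunit, at 85.6, 182 and 228 CPM against 139, 226 and 367 CPM (-0.49 ± 0.14, 0.0724). Grin2a, an NMDA receptor subunit, was at 97.6, 252 and 1434 CPM against 97.7, 185 and 313 CPM (1.07, 0.0657), and its log2 fold change was -0.09 without the 8 libraries. Gria1 stood at a median of 262 against 247 CPM (0.74, 0.163), with a highest MOR-LPS value of 1422 CPM, and its log2 fold change was 0.02 without the 8 libraries, where 0 genes of the list were higher and 2 lower at unadjusted p under 0.05.

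GABA-A receptor subunits had 14 described of 15 and a median of 0.15 (-0.09 without the 8 libraries), with 1 higher and 1 lower at unadjusted p under 0.05. Gabrg3 was at 38.9, 57.0 and 104 CPM in MOR-LPS and 19.3, 108 and 169 CPM in SAL-LPS, with all 14 animals under the SAL-LPS median (-0.75 ± 0.20, edgeR adjusted p = 0.0579), and Gabra5 at a median of 38.3 against 25.4 CPM (0.55, 0.293). The log2 fold change of Gabrg3 was -0.14 with the litter correlation (limma-voom adjusted p = 0.874). In edgeR it was -1.04 without the libraries low in Sim1 and Nkx2-1 (adjusted p = 0.00234) and -0.84 with the astrocyte term (0.0442). Potassium channels (30 described of 30, median 0.15, and -0.04 without the 8 libraries) held Kcnj3 (0.51, 0.182) and Kcnj9 (0.44, 0.313), subunits of the channels that opioid receptors open, on the higher side and Kcnt1 (-0.33, 0.313) on the lower. With the telencephalic term Kcnj3 was at 0.02 and Kcnj9 at 0.23, and in males alone Kcnj9 was at 0.06. Synaptic vesicle genes (23 of 23, median -0.02) held Vamp2 (0.50, 0.0925) and Cplx2 (0.53, 0.327) higher, and Cplx1 (-0.62, 0.260) and Syt2 (-0.90, 0.316) among 3 lower. Without the libraries low in Sim1 and Nkx2-1 that list had 9 higher and 2 lower at unadjusted p under 0.05 and a median of 0.18, and without the 8 libraries Cplx2 was at -0.13.

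Cell adhesion and extracellular matrix genes had 30 described of 30, a median of 0.31, 2 called genes, Nell2 and Itga4, (0.112% of all described genes were called), and 8 higher and 4 lower at unadjusted p under 0.05. Without the 8 libraries high in telencephalic genes none of the 30 was called, 1 was higher and 3 lower at unadjusted p under 0.05 and the median was 0.12, and with the telencephalic term none was called. Itga8, an integrin chain, was at 0.529, 21.9 and 127 CPM in MOR-LPS and 0.466, 7.02 and 17.0 CPM in SAL-LPS (1.99 ± 0.56, edgeR adjusted p = 0.0666), and its log2 fold change was 0.15 without the 8 libraries and 0.42 with the telencephalic term. Lama2, a laminin chain, was at 0, 11.4 and 64.1 CPM against 1.74, 4.44 and 17.0 CPM (1.77 ± 0.55, 0.0893).

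Medians of lists of housekeeping and chromatin functions lay between -0.04 and 0.14. Genes that write, erase or read acetylated chromatin had 26 described of 26 and a median of -0.04, with Sirt2, a deacetylase abundant in oligodendrocytes, at unadjusted p under 0.05 (median 61.3 against 54.5 CPM, 0.49, edgeR adjusted p = 0.0960). The core circadian clock (21 of 21) had a median of 0.12 with Bhlhe40 (0.71, 0.193), heat shock and chaperone genes (18 of 20) a median of 0.10 with Calr (0.51, 0.113), and glycolysis and TCA cycle genes (28 of 28) a median of 0.14 with Pfkp (-0.25, 0.327). Without the libraries low in Sim1 and Nkx2-1 the glycolysis and TCA cycle median was 0.55, with 3 genes called higher and 19 of 28 higher at unadjusted p under 0.05. Of all 18710 described genes, 30 were called higher in that setting and 1388 were higher at that p. In the reported fit no gene of these 4 lists was called. Of 4 transcription factors that the study singled out for LPS, 3 were described with a median of 1.51, among them Tcf4, called, and Fezf2 (2.15, 0.233), with a median of 0.69 without the 8 libraries and 0.74 without those low in Sim1 and Nkx2-1. Fezf2, itself 1 of the 7 telencephalic genes, was at 0.30 in the latter, and since the study picked these factors on these samples they are not independent evidence of a direction.

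Markers of glial cells had positive log2 fold changes on balance although nuclei had been sorted for NeuN. Astrocyte markers (12 described of 12) had a median log2 fold change of 1.25, with 11 positive, 8 higher at unadjusted p under 0.05 (5.05% of all described genes) and Slc1a2 called (0.112% of all described genes). Their summed level was 150, 883 and 3066 CPM (lowest, median, highest) in MOR-LPS and 112, 279 and 1099 CPM in SAL-LPS. Gja1, an astrocytic gap junction protein, had a log2 fold change of 1.70 (edgeR adjusted p = 0.149), Fgfr3 of 1.26 (0.218), and Gfap, the intermediate filament of astrocytes, of 1.61 (0.221), with all 14 MOR-LPS animals above the SAL-LPS median of 2.96 CPM.

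All 14 oligodendrocyte markers were positive, with a median of 1.01, 4 at unadjusted p under 0.05 and none called. Their sum was 234, 632 and 6634 CPM against 170, 425 and 2693 CPM, and Olig1 (1.96, edgeR adjusted p = 0.123), Pdgfra (1.51, 0.265), Cnp (1.10, 0.296) and Mbp (1.02, 0.240) had the smallest p. Microglia markers (12 described of 13, median 0.45) summed to 22.6, 55.3 and 294 CPM against 28.1, 37.5 and 111 CPM, with Csf1r (1.42, 0.111) and C1qc (1.66, 0.329) at unadjusted p under 0.05 and Tmem119 at 0 in 7 of 14 and 2 of 11 animals. Endothelial and pericyte markers (8 of 13, median 0.67) and choroid plexus and ependymal markers (8 of 12, median 0.48) held no gene at that p. Pan-neuronal markers (10 of 10) had a median of 0.08 and also none, but without the libraries low in Sim1 and Nkx2-1 their median was 0.35, with 1 called and 5 higher at that p. With the oligodendrocyte sum as a term, added after the data were seen, edgeR called 79 described genes, and with the astrocyte term 40. With the astrocyte term the list medians were 0.01 for oligodendrocyte, -0.33 for microglia, -0.41 for endothelial and pericyte, and -0.22 for choroid plexus and ependymal markers. The part of these markers in the other differences was otherwise not tested.

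Markers of neighbouring regions were unevenly spread too. Cortex and hippocampus markers (11 described of 12) had a median of 1.75 and 5 at unadjusted p under 0.05, all higher, among them Neurod6 (2.36, edgeR adjusted p = 0.0951), Prox1 (1.05, 0.153) and Neurod2 (1.99, 0.231). The list's median was 0.14 with the telencephalic term, which was built from some of its members, and 0.18 without the 8 libraries. Striatal neuron markers (12 of 12) had a median of -0.74 and 5 at unadjusted p under 0.05, all lower, and summed to 365, 468 and 554 CPM in MOR-LPS and 381, 568 and 2455 CPM in SAL-LPS. Rgs9 was under the SAL-LPS median in all 14 MOR-LPS animals (median 60.6 against 125 CPM, -0.997, 0.0761), and the adenosine receptor gene Adora2a (-2.94, 0.152) was also lower, at 0 in 9 of 14 and 6 of 11 animals. Adora2a met the 1 CPM limit only through SAL-LPS, with a highest value of 2.35 CPM in MOR-LPS. Without the SAL-LPS library of animal 0 of litter 10 Rgs9 was at -0.62 and Adora2a at -1.63, and Rgs9 was at -0.43 with litter sums and -0.31 with the litter correlation. Thalamus markers (10 of 11) had a median of -0.03 and none at that p. Midbrain and hindbrain markers had 4 described of 12 and a median of -0.75 (2.53 without the libraries low in Sim1 and Nkx2-1). Of them Slc6a5, which met the 1 CPM limit through SAL-LPS alone, was called (0.112% of all described genes were called). Pax7 (2.91, 0.157), at 0 in 7 animals of each group, was higher at unadjusted p under 0.05. It met the limit through MOR-LPS alone, with a highest value of 1.98 CPM in SAL-LPS.

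The same exposure contrast after a saline injection, MOR-SAL against SAL-SAL, shares no library with the one after LPS. In it 358 described genes were called (1.91%), 52 higher (0.278%) and 306 lower (1.64%). Whether the exposure effect differed between the challenges was tested directly as the difference of the differences: it did in 447 described genes (2.39%), 355 with a more positive effect under LPS (1.90%) and 92 with a more negative one (0.492%). Over all genes tested it did in 1108 (3.84%). Of the 21 genes called after LPS, 10 passed this test. Without the 8 libraries high in telencephalic genes the difference was called in 187 genes, and in males alone in 0 (1368 described genes at unadjusted p under 0.05). Animals of 1 litter were in part given LPS and in part saline, so this difference could also be taken within litters: with litter as a block, added after the data were seen, it was called in 25 genes (20 more positive, 5 more negative), all 25 among the 447, with litter sums in 39, and with a litter correlation in 100, of which 42 were more positive and 58 more negative. Oligodendrocyte markers in SAL-SAL libraries summed to up to 7220 CPM, and with their level as a term the difference was called as more positive in 413 genes and as more negative in 144. Thalamus markers there had a median sum of 1370 CPM (range 265 to 5919), whose part was not tested.

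Slc1a2 was called in opposite directions after the 2 challenges. Its medians were 84.9 CPM in MOR-SAL and 243 CPM in SAL-SAL, a log2 fold change of -1.39 (edgeR adjusted p = 0.0012), against 1.23 after LPS, a difference of 2.62 (4.84e-05). Golm1 (-1.07 after saline, difference 3.77, adjusted p = 0.00712), Sort1 (-0.55, 1.26, 0.00194), Itga4 (-0.39, 2.08, 0.0170) and Nell2 (-0.21, 1.35, 0.0150) were likewise below 0 after saline, though none was called there. Susd6 had medians of 19.5 CPM in MOR-SAL and 21.3 CPM in SAL-SAL (-0.06), which gave a difference of 1.26 (edgeR adjusted p = 0.0103). With litter as a block the difference was still called in Slc1a2 (2.26, edgeR adjusted p = 0.000673) and Sort1 (1.14, 0.0384) but not in Golm1 (0.0837), Itga4 (0.148), Nell2 (0.180) or Susd6 (0.118).

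Among genes lower in MOR-LPS, Adam4 had medians of 45.9 CPM in MOR-SAL and 35.8 CPM in SAL-SAL (0.18), a difference of -1.26 (edgeR adjusted p = 0.0103), and Zfp941 of 88.4 and 73.4 CPM (0.27), a difference of -0.95 (0.0106). Oprk1 had medians of 59.1 and 39.1 CPM after saline (0.71), a difference of -1.70 (0.0156), and Penk of 62.0 and 46.7 CPM (0.73), a difference of -1.91 (0.0301). The opioid list as a whole had a median of 0.72 after saline and of -0.78 after LPS. The glucocorticoid-induced list had -0.51 and 0.70, with Klf9 at medians of 26.3 and 49.3 CPM after saline (-0.79, difference 1.53, edgeR adjusted p = 0.00613). Rprm (difference 2.38, 0.0767) and Tcf4 (1.29, 0.0693) did not pass the test of the difference. With the litter block Adam4 (edgeR adjusted p = 0.156), Zfp941 (0.164), Oprk1 (0.131), Penk (0.471) and Klf9 (0.0795) kept their direction and missed the threshold.

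**Figure D5:**
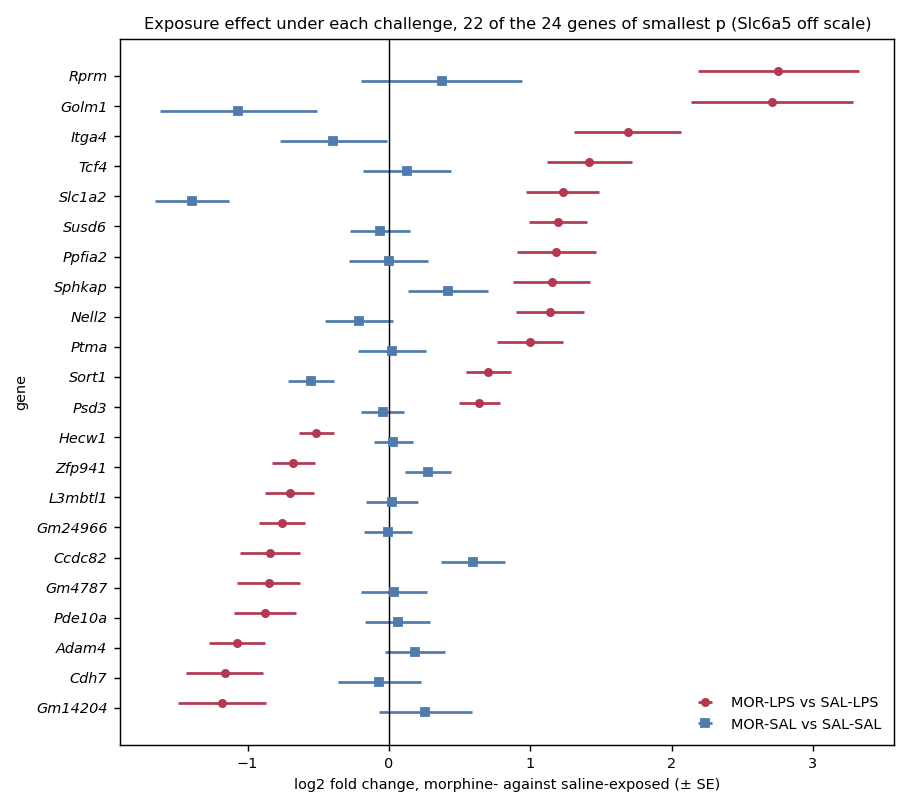
Log2 fold change of morphine against saline exposure (± SE) after LPS and after saline injection for 22 of the 24 genes with the smallest p in each direction; Slc6a5, at -6.89 after LPS, is off the scale. Slc1a2 stands at 1.23 after LPS and -1.39 after saline, and Susd6 at 1.20 and -0.06.

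The exposure effect under LPS was also compared between the sexes in a fit with each condition within each sex. It differed in 1 described gene at an edgeR adjusted p under 0.05, with 3037 of 28841 tested genes at unadjusted p under 0.05. The gene, named after its values were seen, was Dusp1, a phosphatase that turns off MAP kinases and a member of both the glucocorticoid-induced and the immediate early list. In females it was at 17.4, 34.6 and 102 CPM in 7 MOR-LPS animals and 8.56, 14.0 and 22.5 CPM in 7 SAL-LPS animals, and in males at 8.90, 16.8 and 19.9 CPM in 7 MOR-LPS and 25.0, 39.5 and 51.4 CPM in 4 SAL-LPS animals. The effect was 2.89 greater on the log2 scale in females (edgeR adjusted p = 0.0211). It missed the threshold when only library size scaled the counts (0.242) and when counts were summed over litters (0.152). The telencephalic sums stood at 3.05, 113 and 171 CPM in SAL-LPS males, 12.7, 190 and 409 CPM in MOR-LPS males, 6.07, 8.42 and 18.5 CPM in SAL-LPS females and 8.22, 18.4 and 385 CPM in MOR-LPS females, and their part in this difference was not tested.

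Fits of each sex alone gave unequal log2 fold changes in other named genes, none of which passed the test of the difference between the sexes. In females and males in that order these were 1.63 and 0.03 in Junb, -1.33 and -0.28 in Oprk1, -1.32 and -0.36 in Rgs9, 0.06 and 1.74 in Npy1r, 0.10 and 1.54 in Gria1, -0.16 and -2.03 in Syt2, and 1.74 and 0.18 in Cnp.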

How the data were processed

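NeuN-sorted nuclei of 1 animal gave each library, built with a modified Smart-seq3 protocol and Tn5 tagmentation and sequenced as paired-end 150 bp reads. Per the study's methods, the authors trimmed reads with Trim Galore 0.6.7, aligned them to mm10 with STAR 2.7.10a, counted them per gene with STAR and HTSeq 0.12.4, and tested them with DESeq2 1.40.2. The deposited values used here are the authors' raw counts of reads per gene, without normalization; whether counting used strand is not given in the sources used here. The deposited CPM tables, the other tissues and the H3K27ac data were not used here.

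The 48 hypothalamic libraries kept by depth were fitted together with edgeR 4.0.16 in R 4.3.3 (TMM scaling, quasi-likelihood test) with a term for the 4 conditions and for sex, on genes with a total count above 10. P-values were adjusted by Benjamini-Hochberg over all 28841 genes tested and genes were called at an adjusted p under 0.05. CPM limits used library totals, printed levels the TMM-scaled totals. Detection floors cover counting error only, since reads without molecular identifiers are not independent molecules; standard errors come from the fit and include the spread between animals. The fits were tested on simulated data before use.

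The members and the 33 gene lists were chosen with earlier results of these data known. The litter is the first number of the animal label, per the study's sample key. For the difference between challenges litter was also a fixed block in edgeR; deviations of same-sex animals of 1 litter under different challenges had a median correlation of 0.00883 over 35 pairs, against 0.00289 over 391 pairs of different litters. Named were the 12 higher and 12 lower described genes with the smallest unadjusted p, called or not, and of each list up to 4 members with the smallest p, printed where that p was under 0.05; other names are marked in the text. A few genes are not reported here, though counts, sums and medians include them. Alternatives were DESeq2 1.42.0, other scalings and filters, limma 3.58.1 (voom) with a litter correlation, litter sums, a robust prior, low-depth libraries kept, the compared groups alone, either sex alone, no sex term, and each library and litter left out. Terms for telencephalic, oligodendrocyte and astrocyte genes, and leaving out libraries by those telencephalic genes, by Sim1 and Nkx2-1, by Xist or by highest total, were chosen after seeing the data. Positions are from GENCODE M21 on GRCm38, the mm10 build.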

Additional observations from a re-analysis of the deposited data

Results flagged for a closer look

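These genes are listed because their exposure effect differed between the LPS and the saline challenge by an edgeR adjusted p under 0.05 for the difference itself, computed as the log2 fold change of MOR-LPS against SAL-LPS minus that of MOR-SAL against SAL-SAL. No cause was tested. With litter as a block all 32 listed kept their direction and 4 passed, namely Slc1a2, Sort1, Il1rap and Ccdc82.

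Among genes called under LPS with a more positive effect there, the difference was 1.26 in Susd6, 1.35 in Nell2, 2.62 in Slc1a2, 3.77 in Golm1, 1.26 in Sort1 and 2.08 in Itga4. Among those with a more negative effect it was -1.26 in Adam4, -0.95 in Zfp941 and -9.12 in Slc6a5. Slc6a5 was at 0 in many animals, so the size of its difference depends on the prior count of the fit.

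Genes that were not called under LPS passed the test of the difference too. In the glucocorticoid-induced list the difference was 2.34 in Ddit4, 1.77 in Zbtb16 and 1.53 in Klf9. The cytokine receptor genes Il6ra and Il1rap differed by 5.73 and 2.08, with the effect after saline at -3.08 (edgeR adjusted p = 0.0300) and -1.34 (0.0031). Median Il6ra levels were 0.192 CPM in MOR-SAL and 2.78 CPM in SAL-SAL.

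In the opioid list Oprk1 differed by -1.70 and Penk by -1.91, and among neuropeptides Cck by 2.93. Of the receptors and channels, Grin2a differed by 1.66, Grik3 by -0.89, Gabrg3 by -1.08, and Kcnj3 and Kcnj9 by 1.07 each. Gad2 differed by -1.15, Lama2 by 2.78 and Ccdc82 by -1.44.

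Cell type and region markers passed it as well. Olig1 and Mbp of oligodendrocytes differed by 3.52 and 2.37, Fgfr3 of astrocytes by 2.81, Csf1r of microglia by 3.10, Prox1 of the cortex and hippocampus list by 1.74, and Rgs9 and Adora2a of striatal neurons by -1.97 and -5.83. The oligodendrocyte list had a median log2 fold change of -1.84 after saline and 1.01 after LPS, and the astrocyte list of -1.08 and 1.25.

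Dusp1 is listed because its exposure effect under LPS differed between the sexes, by 2.89 on the log2 scale in females minus males (edgeR adjusted p = 0.0211).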

How the results depend on the processing

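No paired analysis of MOR-LPS against SAL-LPS was possible because no litter held both exposures; the difference between challenges could be paired within litters and is given below. The 21 genes called in MOR-LPS against SAL-LPS became 47 with DESeq2, 69 with library size as the only scaling (median of all described genes shifted by 0.17), 3 with filterByExpr, 3 with only described genes in the fit, 58 with low-depth libraries kept, 139 with a litter correlation in limma-voom (43 higher, 96 lower), 3 with litter sums, 2 with a robust prior, 1 with only the compared groups in the fit, 0 in females alone (1479 at unadjusted p under 0.05), 1 in males alone and 48 without the sex term. DESeq2 size factors (23) and no filter (28) stayed within 1.5 times. Of alternatives chosen after seeing the data, the telencephalic term gave 12, the oligodendrocyte term 79, the astrocyte term 40, leaving out libraries high in telencephalic genes 0 (1180 at unadjusted p under 0.05), those low in Sim1 and Nkx2-1 65 (30 higher, 35 lower), the female library low in Xist 54 and the library of the highest total 9. The causes of these moves were not tested.

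Leaving out each library or litter gave 1 to 54 calls, and 35 of 40 such fits moved the count over 1.5 times. Counts fell to 1 without litter 14, to 2 without animals 14-4, 4-4 or 8-3 or litters 4, 6, 8 or 9, to 3 without 14-0, 6-0, 9-1 or 9-3, and to 4 to 12 without 10-0, 10-2, 16-0, 16-2, 3-1, 13-2, 1-0, 17-1, 11-0, 15-1 or 15-3 or litters 3, 16, 11, 17, 13, 7, 10 or 15 (litter first, then animal). They rose to 37 without 6-2, 41 without litter 18, 51 without 1-2 and 54 without 18-1.

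The 447 genes whose exposure effect differed between challenges became 268 with filterByExpr, 287 with only described genes, 100 with the litter correlation (42 higher, 58 lower, where the median of all described genes was -0.17), 39 with litter sums, 25 with litter as a replicate block (20 higher, 5 lower, median -0.11; added after the data were seen), 0 in males alone, 189 with the telencephalic term and 187 without the libraries high in telencephalic genes, and 226 (without litter 10) to 654 (without litter 1) over the fits that left out a library or litter. The sex difference (1 gene) gave 3 with DESeq2, 0 with library size as the only scaling (1182 at unadjusted p under 0.05), 3 with low-depth libraries kept, 103 with the litter correlation and 0 with litter sums (1659 at unadjusted p under 0.05). The 358 genes of the comparison Hypothalamus MOR-SAL vs SAL-SAL became 696 with DESeq2 and 224 with low-depth libraries kept.

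Of the 21 called genes 19 kept their direction in every alternative. The direction turned without libraries high in telencephalic genes for Dsp (-1.33), Npy1r (-0.01), Cplx2 (-0.13), Grin2a (-0.09), Kcnt1 (0.04) and Neurod2 (-0.19), and without libraries low in Sim1 and Nkx2-1 for Slc6a5 (1.18), Glra1 (0.21), Cplx1 (0.54), Syt2 (0.76) and Kcnt1 (0.05). It turned in females alone for Dsp (-1.44), Cplx1 (0.11) and Kcnt1 (0.01), in males alone for Pomc (2.00), with the telencephalic term for Neurod2 (-0.19), with the oligodendrocyte term for Cnp (-0.18), and with the astrocyte term for Cnp (-0.18), Pdgfra (-0.46) and Fgfr3 (-0.11). Depth limits genes under about 1 CPM, where 3 counts were worth up to 0.988 CPM.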

Other observations

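Among the genes too low to be described, Prok2, for prokineticin 2, an output signal of the suprachiasmatic nucleus, was at 0 in all 14 MOR-LPS animals and in 5 of 11 SAL-LPS animals, whose highest level was 2.20 CPM. It was called lower over all genes tested (edgeR adjusted p = 0.0491), and a count of 3 was worth 0.325 to 0.988 CPM in MOR-LPS, so the level there may lie anywhere under that. It was named after its values were seen.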
